A study of Homo sapiens with 9 samples.

Results

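Retinoid signalling was followed in 9 genes: STRA6, DHRS3, ALDH1A3, CYP26B1, CRABP2, RARA, RARB, RARG and RXRA. They were matched by symbol to the Ensembl identifiers of the deposited table, and all 9 were found among its 57905 identifiers. The set was chosen by pathway and selected on levels and fold changes of these same libraries, which were known at the time. Levels and contrasts of the 9 genes are therefore descriptions, and no p-value is given for them.

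RNA was sequenced from KYSE180 cells, an established line of human esophageal squamous carcinoma that the title calls KDM6A-deficient, after 6 Gy of ionizing radiation. There were 3 groups of 3 libraries. Cells of shEZH2#1 and of shEZH2#3 each carried a short hairpin RNA against EZH2, the enzyme that methylates histone H3 as part of a Polycomb complex, and cells of shluc carried a hairpin against luciferase, a gene that human cells lack. All 3 groups were irradiated with the same dose, so an effect of radiation itself is not measured here. The labels give the shEZH2 cells an EZH2 knockout genotype while the title and design speak of a knockdown, and they give shluc a wild-type genotype. No label says whether the 3 libraries of a group came from separate cultures, so every SE, SD and p-value covers only how far these libraries spread, and that spread may be technical. Both hairpins were compared with the same shluc libraries.

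Libraries held 14958011 to 16946226 estimated counts in shEZH2#1, 18366510 to 21152006 in shEZH2#3 and 18563879 to 19508444 in shluc, and 1 count was worth 0.0473 to 0.0669 CPM (counts scaled to a common library size). EZH2 (ENSG00000106462, chromosome 7, 148807383 to 148884321) averaged 10.1 ± 2.41 CPM in shEZH2#1, 9.94 ± 0.989 in shEZH2#3 and 19.3 ± 0.89 in shluc (SD, n = 3 each), a log2 fold change of -0.94 ± 0.18 (SE) in shEZH2#1 (adjusted p = 0.00163) and of -0.96 ± 0.18 in shEZH2#3 (adjusted p = 0.000433). With an offset for GC content and transcript length, described next, these were -0.73 ± 0.15 (adjusted p = 0.004) and -0.56 ± 0.15 (adjusted p = 0.0135). Libraries also differed in how their counts followed the GC content of transcripts: the rank correlation of each gene's deviation from its mean over the libraries with its GC content, across genes that are not independent replicates, was -0.25 to 0.25 in shEZH2#1, 0.37 to 0.64 in shEZH2#3 and -0.69 to -0.39 in shluc. The retinoid fold changes are therefore also given with this offset, which removes from each library its smooth trend with GC content and length. Of 8 genes listed as squamous epithelial markers, KRT5, KRT14, KRT6A, TP63, SOX2 and DSG3 each averaged under 1 CPM. The remaining genes of the list, CDH1 and EPCAM, did not, so the sum of the list is no level of the 6 alone. The summed level of all 8 was 7.92 to 8.53 CPM in shEZH2#1, 3.83 to 5.61 in shEZH2#3 and 10.3 to 10.8 in shluc. KRT8 and KRT18, keratins of simple epithelia looked at after the values were seen, stood at 3893 to 7000 and 2511 to 4851 CPM. VIM, which encodes vimentin and was looked at with them, stood at 332.8 to 505.2 CPM. Of 6 fibroblast markers 2 averaged under 1 CPM, with COL1A2 at 0, and their sum was 53.9 to 62.4 CPM in shEZH2#1, 79.5 to 118 in shEZH2#3 and 59.5 to 68.3 in shluc. Of the 2 endothelial markers found 1 averaged under 1 CPM. Their sum was 7.97 to 8.29 CPM in shEZH2#1, 28.4 to 32.7 in shEZH2#3 and 13.8 to 19.8 in shluc. Of the 4 leukocyte markers 3 averaged under 1 CPM, with PTPRC and CD3E at 0. Their sum was 13.8 to 17.3 CPM in shEZH2#1, 19.4 to 25.2 in shEZH2#3 and 16.4 to 20.9 in shluc. All libraries are labelled as the same line, KYSE180, so these sums are not read as shares of cell types. The part of these marker shifts in the retinoid results was not tested. In bulk RNA a different share of cells and a different amount of RNA per cell cannot be told apart.

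Cells take up vitamin A as retinol, oxidise it reversibly to retinaldehyde and irreversibly to retinoic acid, and break retinoic acid down again with enzymes of the CYP26 family. Retinoic acid binds retinoic acid receptors (RARs), which sit on DNA as heterodimers with retinoid X receptors (RXRs) at direct repeats of a short half-site and recruit corepressors without ligand and coactivators with it. In stratified epithelia such as the esophagus the pathway is known for holding back keratinization, and several of its own genes, DHRS3, STRA6 and RARB among them, are known from other cells to be induced by retinoic acid.

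Promoters were read from RefSeq (GRCh38.p14), which lists 21 transcription starts for the 9 genes, each with 250 bases before and 50 bases after the start. The RAR and RXR half-sites searched were the consensus AGGTCA, the related form AGTTCA, a further form GGGTCA, and lastly GGTTCA, on both strands and with overlapping matches counted. A half-site was found at 10 of the 21 starts, against 38.6% of all 35116 RefSeq promoters of this length. A direct repeat of 2 half-sites on 1 strand, with 1, 2 or 5 bases between them, was found at 1 of the 21 starts, against 0.3% of all promoters. That start belongs to RARB, and the repeat is the textbook retinoic acid response element, here with 5 bases between its half-sites. It is shown beside a start of DHRS3 and of STRA6, the genes whose levels differed most from shluc, with every half-site in capitals and the gene's own strand written 5′ to 3′. The coordinates are chr3:25428013-25428312 (plus strand) for RARB, chr1:12616740-12617039 (minus strand) for DHRS3 and chr15:74212210-74212509 (minus strand) for STRA6.
DHRS3: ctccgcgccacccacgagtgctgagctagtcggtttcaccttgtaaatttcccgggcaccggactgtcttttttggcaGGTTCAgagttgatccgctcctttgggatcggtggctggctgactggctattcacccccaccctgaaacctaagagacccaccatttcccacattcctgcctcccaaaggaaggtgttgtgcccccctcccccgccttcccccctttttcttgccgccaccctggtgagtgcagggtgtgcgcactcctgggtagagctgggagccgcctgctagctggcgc
STRA6: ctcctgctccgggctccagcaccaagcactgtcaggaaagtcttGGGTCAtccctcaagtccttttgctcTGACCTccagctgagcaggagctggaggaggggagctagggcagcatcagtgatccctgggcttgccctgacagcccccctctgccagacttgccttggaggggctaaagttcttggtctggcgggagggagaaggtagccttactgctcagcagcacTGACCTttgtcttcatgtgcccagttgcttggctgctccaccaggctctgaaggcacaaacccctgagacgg
RARB: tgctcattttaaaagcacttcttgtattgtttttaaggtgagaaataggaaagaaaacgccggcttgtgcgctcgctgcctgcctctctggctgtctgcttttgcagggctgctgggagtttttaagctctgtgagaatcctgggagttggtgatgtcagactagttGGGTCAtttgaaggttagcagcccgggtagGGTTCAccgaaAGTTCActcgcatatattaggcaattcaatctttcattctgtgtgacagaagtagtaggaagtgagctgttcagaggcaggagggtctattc
The DHRS3 start holds 1 half-site and the STRA6 start 3, none of them in a direct repeat of the spacings searched. These matches describe letters in a window of 300 bases and say nothing about binding, and the other 2 starts of DHRS3 and 4 of STRA6 hold no direct repeat either. The STRA6 start shown is its richest in half-sites, and its other 4 hold 0, 1, 0 and 0. The other 2 starts of DHRS3 hold 0 half-sites (64.7% GC, 31 CpG pairs) and 1 (56.0% GC, 5 CpG pairs). Counts and composition are therefore those of the windows printed, not of the genes. The 3 windows differ in base composition: GC content is 60.7% with 13 CpG pairs at DHRS3, 59.7% with 3 at STRA6 and 46.7% with 7 at RARB, beside medians of 58.7% and 14 over all promoters.

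STRA6, the cell surface receptor that takes retinol from its plasma carrier RBP4, was higher with both hairpins. STRA6 (ENSG00000137868, chromosome 15, 74179466 to 74212267, minus strand) had 63.9, 67.3 and 72.5 CPM in shEZH2#1, 131.9, 149.7 and 132.9 CPM in shEZH2#3 and 45.0, 38.4 and 38.2 CPM in shluc. The 3 groups did not overlap, with shEZH2#3 highest, shEZH2#1 between and shluc lowest. On the log2 scale STRA6 differed from shluc by 0.74 ± 0.14 with shEZH2#1 and by 1.77 ± 0.14 with shEZH2#3, both called, and shEZH2#1 differed from shEZH2#3 by -1.02 ± 0.14, also called. Here and below, called means an adjusted p below 0.05 in edgeR's quasi-likelihood test over 13252 genes, and errors of log2 fold changes are SE. With the GC and length offset the STRA6 differences were 0.42 ± 0.09 and 1.18 ± 0.09, and both stayed called. CCDC33, which overlaps STRA6 on the other strand, reached at most 0.148 CPM.

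DHRS3, a reductase that turns retinaldehyde back into retinol and so limits the making of retinoic acid, had the largest fold changes of the tested members. Its levels (ENSG00000162496, chromosome 1, 12567910 to 12617731, minus strand) were 8.59, 7.07 and 9.26 CPM in shEZH2#1, 21.7, 25.0 and 31.7 CPM in shEZH2#3 and 2.90, 2.35 and 5.27 CPM in shluc. These values rest on 385, 1354 and 232 counts summed over the libraries of shEZH2#1, shEZH2#3 and shluc. Every shEZH2#1 library lay above every shluc library and below every shEZH2#3 library, and within shluc replicate 3 stood highest. The ratio of mean levels was 2.37 for shEZH2#1 over shluc and 7.45 for shEZH2#3 over shluc. The fitted log2 fold changes were 1.25 ± 0.25 with shEZH2#1 and 2.91 ± 0.25 with shEZH2#3, and shEZH2#1 minus shEZH2#3 was -1.66 ± 0.23, all called. Corrected for GC content and length these were 1.09, 2.56 and -1.47, all still called. Over 21 other settings DHRS3 was called in each, with log2 fold changes of 1.01 to 1.66 for shEZH2#1 and 2.56 to 3.31 for shEZH2#3 against shluc.

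**Figure D1:**
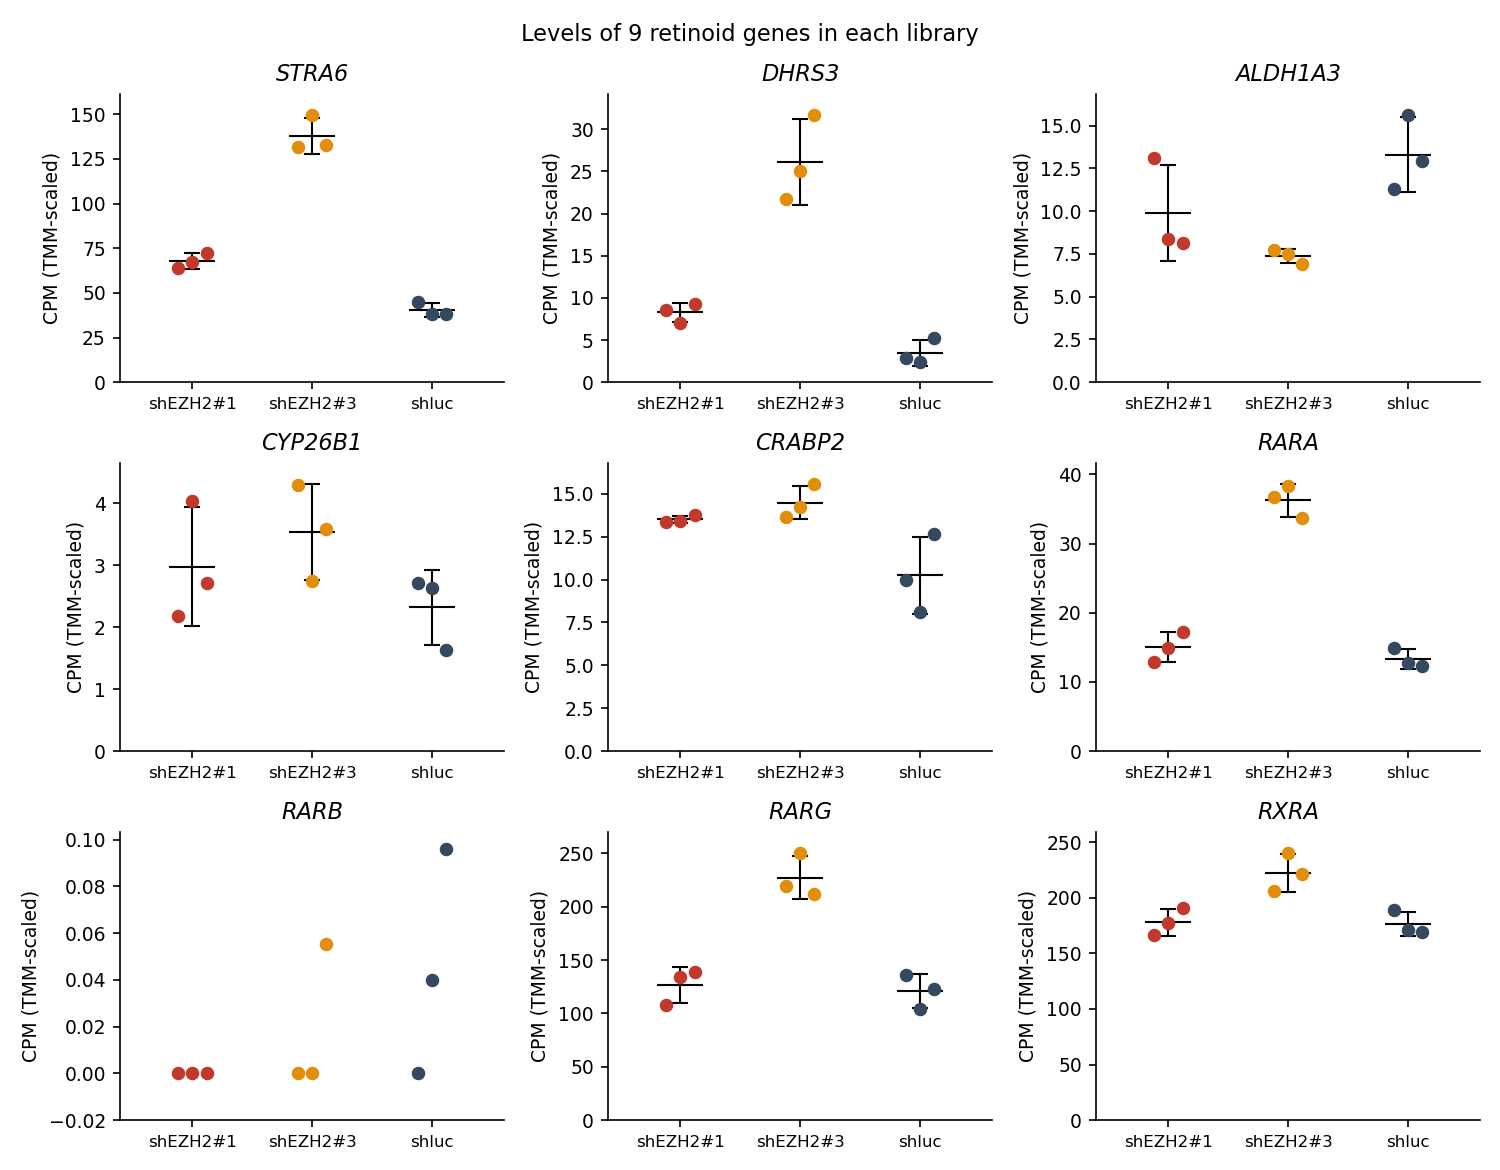
Level of each of the 9 retinoid genes in CPM, scaled by TMM, in every library of shEZH2#1, shEZH2#3 and shluc; points are libraries, bars the mean ± SD (n = 3; none drawn for RARB, which had 4 counts in all). DHRS3 and STRA6 are lowest in shluc and highest in shEZH2#3, RARA and RARG stand apart only in shEZH2#3, and ALDH1A3 is below shluc in shEZH2#3.

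ALDH1A3, which oxidises retinaldehyde to retinoic acid, was the only tested member with a lower level in shEZH2#3 than in shluc. ALDH1A3 (ENSG00000184254, chromosome 15, 100877714 to 100916626, plus strand) had 13.1, 8.39 and 8.13 CPM in shEZH2#1, 7.72, 7.48 and 6.90 CPM in shEZH2#3 and 11.3, 15.6 and 12.9 CPM in shluc. Replicate 1 of shEZH2#1 lay inside the shluc range while the other two lay below it, and all 3 libraries of shEZH2#3 lay below shluc. The log2 fold change was -0.42 ± 0.20 with shEZH2#1, not called, and -0.85 ± 0.20 with shEZH2#3, called. Without replicate 1 of shEZH2#1 the contrast of shEZH2#1 reached -0.71 and was called. The offset gave -0.26 and -0.85, of which the second was called.

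CYP26B1, an enzyme that clears retinoic acid by oxidation, had the fewest counts of the tested members. It had 140, 184 and 159 counts summed over shEZH2#1, shEZH2#3 and shluc. Its levels (ENSG00000003137, chromosome 2, 72129238 to 72148038, minus strand) were 2.18, 4.05 and 2.72 CPM in shEZH2#1, 4.29, 2.74 and 3.59 CPM in shEZH2#3 and 2.72, 2.63 and 1.63 CPM in shluc. The shEZH2#1 libraries overlapped shluc, and the lowest shEZH2#3 library stood just above the highest of shluc. Log2 differences of 0.36 ± 0.30 and 0.60 ± 0.30 against shluc were not called, nor were they in any other setting.

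CRABP2, a cytosolic protein that carries retinoic acid to its receptors, showed a small difference whose call depended on the setting. It had (ENSG00000143320, chromosome 1, 156699606 to 156705816, minus strand) 13.4, 13.4 and 13.7 CPM in shEZH2#1, 13.7, 14.2 and 15.6 CPM in shEZH2#3 and 9.95, 8.13 and 12.7 CPM in shluc. All knockdown libraries lay above all shluc libraries, and the hairpins overlapped each other. The log2 fold changes were 0.40 ± 0.18 with shEZH2#1, not called, and 0.50 ± 0.18 with shEZH2#3, called. The second was called in 11 of the 21 other settings and ranged from 0.05 to 0.68; among libraries left out singly, its call was lost without shluc replicate 1 (0.48) or 2 (0.35) and without shEZH2#3 replicate 2 (0.51) or 3 (0.44). Without shluc replicate 3 the difference with shEZH2#1 was called too (0.58). Under the offset the values were 0.13 ± 0.14 and 0.05 ± 0.14, and neither was called.

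Among the receptors, RARA and RARG were higher with shEZH2#3 and near shluc with shEZH2#1. RARA (ENSG00000131759, chromosome 17, 40309192 to 40357643, plus strand) had 12.95, 14.9 and 17.3 CPM in shEZH2#1, 36.7, 38.4 and 33.6 CPM in shEZH2#3 and 14.9, 12.7 and 12.3 CPM in shluc. The shEZH2#1 and shluc libraries overlapped, and every shEZH2#3 library was above both. RARA differed from shluc by 0.17 ± 0.16 (log2) with shEZH2#1, not called, and by 1.44 ± 0.16 with shEZH2#3, called; the hairpins differed by -1.27 ± 0.16 (shEZH2#1 minus shEZH2#3), called. The RARA transcript has a GC content of 63.0%, above that of 90.9% of tested genes, and with the offset its 2 differences from shluc were -0.23 and 0.80, of which the second stayed called. RARA-AS1, which overlaps it on the other strand, stood at 0.242 to 1.56 CPM.

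RARG, known as the main RAR of epidermis, was called higher with shEZH2#3 and not with shEZH2#1. RARG (ENSG00000172819, chromosome 12, 53210567 to 53232980, minus strand) had 107.7, 133.8 and 139.3 CPM in shEZH2#1, 219.5, 250.5 and 212.3 CPM in shEZH2#3 and 135.7, 104.5 and 122.8 CPM in shluc. Again shEZH2#1 overlapped shluc and shEZH2#3 lay above both. Log2 fold changes were 0.07 ± 0.16 with shEZH2#1, not called, and 0.91 ± 0.16 with shEZH2#3, called, and shEZH2#1 minus shEZH2#3 was -0.84 ± 0.16, called. With the offset the differences from shluc were -0.21 and 0.36, and the second stayed called.

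RARB, the receptor gene whose promoter carries the direct repeat printed above, was all but undetected. RARB (ENSG00000077092, chromosome 3, 25174332 to 25597932, plus strand) had 0, 1 and 3 counts summed over shEZH2#1, shEZH2#3 and shluc, with no library above 2 counts. A sum of 0 counts in shEZH2#1 allows up to 0.0642 CPM (3 counts over the group, counting error only). RARB did not pass the filter on low counts, so no difference was detectable at this depth, and TOP2B, which overlaps it on the other strand, stood at 10.9 to 30.6 CPM.

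RXRA, the shared heterodimer partner of the RARs, had the smallest fold change of the 8 tested members against shluc with each hairpin before the offset. RXRA (ENSG00000186350, chromosome 9, 134317098 to 134440585, plus strand) had 166.2, 177.2 and 190.5 CPM in shEZH2#1, 206.2, 240.4 and 221.2 CPM in shEZH2#3 and 188.9, 170.6 and 169.5 CPM in shluc. Libraries of shEZH2#1 overlapped shluc, and those of shEZH2#3 lay above it. Neither log2 difference from shluc, 0.01 ± 0.14 with shEZH2#1 and 0.34 ± 0.14 with shEZH2#3, was called. With the GC and length offset both turned negative, -0.49 ± 0.12 and -0.35 ± 0.12, and the first was called lower. The difference with shEZH2#3 was called higher by DESeq2 (0.36) and without both shluc replicate 2 and shEZH2#3 replicate 1 (0.37).

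**Figure D2:**
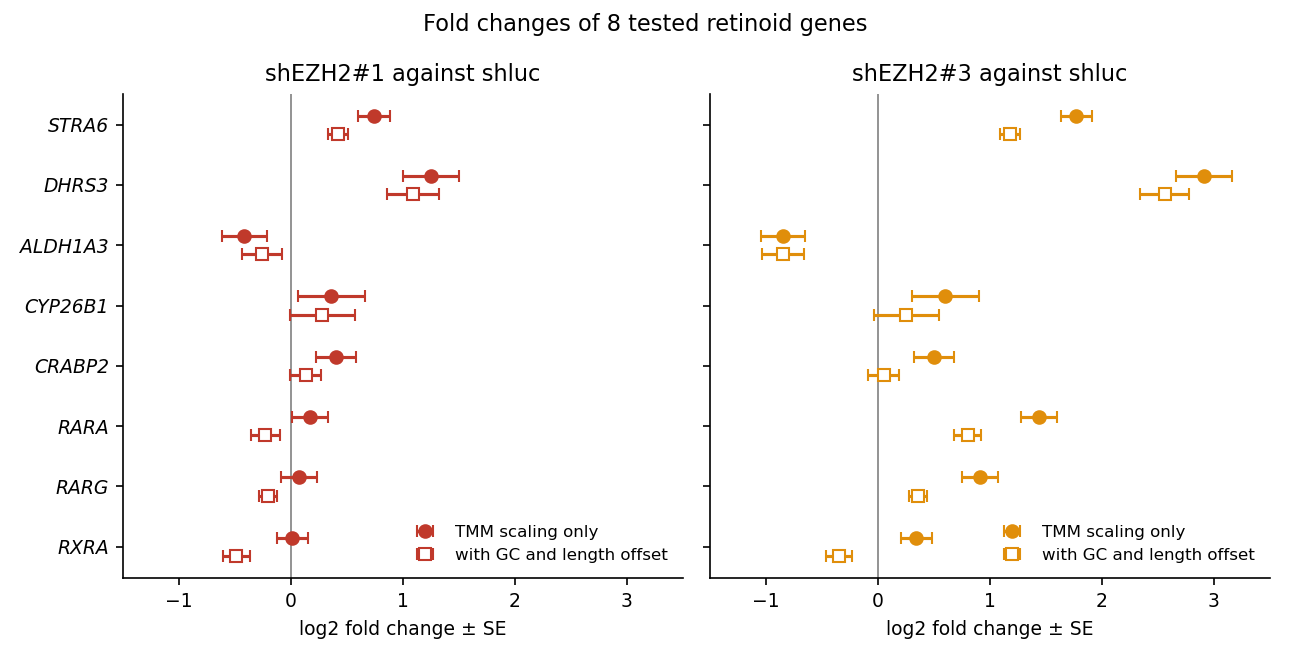
Log2 fold changes ± SE of the 8 tested retinoid genes for shEZH2#1 and shEZH2#3 against shluc, with TMM scaling only (filled) and with the GC and length offset (open). DHRS3 and STRA6 stay right of 0 in both panels under both, while RXRA lies at -0.49 and -0.35 with the offset and at 0.01 and 0.34 without it.

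Counted together, 8 of the 9 members passed the filter. With shEZH2#1, 2 were called higher and 0 lower against shluc, where 11.2% and 7.89% of all tested genes were called higher and lower. With shEZH2#3, 5 were called higher and 1 lower, where the shares of all tested genes were 24.4% and 19.8%. Between the hairpins, 0 were called higher and 4 lower in shEZH2#1 than in shEZH2#3, where the shares were 9.46% and 15.5%. For the mean of both hairpins against shluc, 5 members were called higher and 1 lower, where the shares were 19.6% and 16.6%; without shluc replicate 2 these were 3 and 0. The members were chosen with these contrasts known, so nothing is read from their counts. The median log2 fold change of the 8 was 0.26 with shEZH2#1 and 0.76 with shEZH2#3, beside -0.07 and -0.01 over all tested genes. Without testing, 3 of the 9 lay wholly above shluc in shEZH2#1 (18.3% of tested genes did) and 0 wholly below (18.9%), and in shEZH2#3 the counts were 7 above (26.9%) and 1 below (26.0%). Between the hairpins 1 of the 9 lay wholly higher in shEZH2#1 than in shEZH2#3 (19.7%) and 5 wholly lower (23.2%).

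GC content differed among the members and moved with the fold changes of all genes. The median transcript of a tested gene had 50.3% GC, and the 8 tested members ran from 51.3% (ALDH1A3) to 63.2% (RXRA). In the bin of genes centred on 55.7% GC, where DHRS3 and CRABP2 lie, the median log2 fold change of all genes was 0.09 with shEZH2#1 and 0.36 with shEZH2#3. In the bin at 63.6%, where RARA and RXRA lie, it was 0.45 and 0.70. DHRS3, STRA6, CRABP2 and CYP26B1 lay above the median of their bin with both hairpins, and ALDH1A3 and RXRA below it with both. RARA and RARG lay below it with shEZH2#1 and above it with shEZH2#3. With the offset 2 members were called higher and 1 lower with shEZH2#1 (8.23% and 9.85% of tested genes), and 4 higher and 1 lower with shEZH2#3 (12.7% and 11.5%). For the mean of both hairpins 2 were called higher and 2 lower (9.06% and 9.63%), and between the hairpins 1 higher and 4 lower in shEZH2#1 (13.2% and 15.1%).

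**Figure D3:**
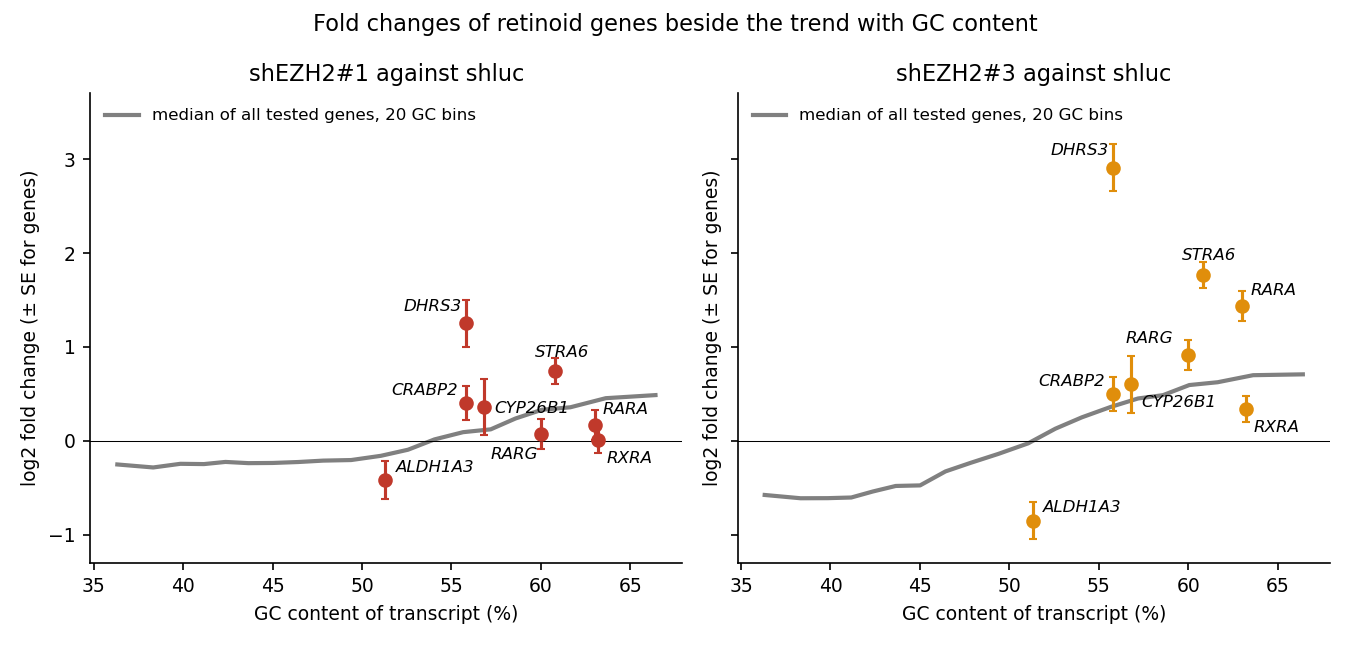
Log2 fold change ± SE of the 8 tested retinoid genes against shluc over the GC content (%) of their transcripts, with the median of all tested genes in 20 GC bins as a grey line, for shEZH2#1 (left) and shEZH2#3 (right). DHRS3 (55.8% GC) lies above the line in both panels and RXRA (63.2% GC) below it in both.

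Levels per kilobase of the longest coding transcript let the genes be set beside each other. In shEZH2#1 the order in CPM per kilobase was RXRA 96.4, RARG 42.9, STRA6 23.7, CRABP2 13.1, RARA 4.95, DHRS3 4.82, ALDH1A3 2.52 and CYP26B1 0.63, and only the neighbours RARA and DHRS3 overlapped between libraries. In shEZH2#3 DHRS3 took place 4 at 15.2 ± 2.97, behind RXRA (121), RARG (76.9) and STRA6 (48.2) and overlapping CRABP2 (14.0 ± 0.951) and RARA (11.9 ± 0.785), with ALDH1A3 (1.88) and CYP26B1 (0.748) last. In shluc DHRS3 took place 7 at 2.04 ± 0.901, where it overlapped ALDH1A3 (3.39 ± 0.555) and lay above CYP26B1 (0.492); RXRA (95.5), RARG (40.9), STRA6 (14.2), CRABP2 (9.91) and RARA (4.38) kept the first places in that order. The place of RXRA rests on its transcript model: with the longest transcript of any type, 5770 bases in place of 1846, it stood at 30.8, 38.6 and 30.6 CPM per kilobase in shEZH2#1, shEZH2#3 and shluc, below RARG in each.

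Other genes of the retinoid pathway came from 6 lists with 58 genes that are not among the members, of which 57 were found and 33 tested. The lists were drawn up with earlier results of these data known. Counts and p-values of their genes, here and below, are therefore descriptions. With shEZH2#1, 2 were called higher and 1 lower, and with shEZH2#3, 11 higher and 8 lower, beside the shares of all tested genes given above. The total of 3 with shEZH2#1 became 6 without shluc replicate 3 and 5 without shEZH2#3 replicate 1. Their median log2 fold change was -0.11 with shEZH2#1 and 0.30 with shEZH2#3, beside -0.07 and -0.01 over all tested genes. Under the offset the counts were 2 higher and 6 lower with shEZH2#1, where 8.23% and 9.85% of all tested genes were called, and 8 higher and 3 lower with shEZH2#3, where 12.7% and 11.5% were.

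ALDH1A1, a relative of ALDH1A3, was the only tested gene of the other enzymes that make or break down retinoic acid. Its level was higher with both hairpins than in shluc. ALDH1A1 (ENSG00000165092, chromosome 9, 72900662 to 73080442, minus strand) had 2.66, 3.20 and 3.60 CPM in shEZH2#1, 3.26, 2.56 and 0.994 CPM in shEZH2#3 and 0, 0.479 and 0.815 CPM in shluc. The knockdown libraries all lay above the shluc libraries, on 146, 116 and 29 counts in shEZH2#1, shEZH2#3 and shluc. With a shluc library at 0 CPM, ALDH1A1 passed the filter on low counts only through the knockdown libraries, where it was high. Its p-values are therefore descriptions and no test of a rise. The log2 fold changes were 2.85 ± 0.58 (adjusted p = 0.00216) with shEZH2#1 and 2.38 ± 0.58 (adjusted p = 0.00316) with shEZH2#3. ALDH1A1 was called higher with the offset too (3.07 and 2.91), whereas ALDH1A3 had negative fold changes with both hairpins.

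In retinol binding, uptake and storage, 2 of 4 tested genes rose with shEZH2#3, where 24.4% of all tested genes were called higher, and 0 of 4 passed the test with shEZH2#1. With the offset 2 of the 4 were called lower with shEZH2#1 (9.85% of all tested genes) and 1 higher with shEZH2#3 (12.7%). SCARB1, a lipoprotein receptor that takes up carotenoids, averaged 264 ± 24.7 CPM in shEZH2#1, 539 ± 69.8 in shEZH2#3 and 342 ± 32.0 in shluc, a rise of 0.65 ± 0.16 (log2, adjusted p = 0.00256) with shEZH2#3. Between the hairpins SCARB1 differed by -1.03 ± 0.16 (adjusted p = 8.7e-05), and with the offset it was called lower in shEZH2#1 (-0.49, adjusted p = 0.00266) and its rise with shEZH2#3 was 0.26 (adjusted p = 0.0493). DGAT1, an acyltransferase that can esterify retinol, rose by 0.44 ± 0.17 (adjusted p = 0.0422) with shEZH2#3, and this turned to -0.19 with the GC and length offset. Its call was also lost without any of shluc replicate 2 (0.31), shEZH2#1 replicates 1 (0.41) and 2 (0.43) and shEZH2#3 replicates 2 (0.33) and 3 (0.42), and without shEZH2#3 replicate 1 DGAT1 was called higher with shEZH2#1 (0.47).

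Of the 8 tested genes that interconvert retinol and retinaldehyde beside DHRS3, 2 rose with shEZH2#3, 0 fell, and 0 passed the test with shEZH2#1. The share rising with shEZH2#3 was near the 24.4% of all tested genes called higher. With the offset 1 of the 8 was called lower with shEZH2#1 (9.85% of all tested genes) and 1 higher with shEZH2#3 (12.7%). RDH5, a retinol dehydrogenase best known from the retinal pigment epithelium, averaged 3.56 ± 0.64 CPM in shEZH2#1, 7.45 ± 0.892 in shEZH2#3 and 3.04 ± 1.36 in shluc, a rise of 1.31 ± 0.28 (adjusted p = 0.00135) with shEZH2#3. With the offset RDH5 was at 0.80 and still called. Reads of RDH5 may be shared with BLOC1S1-RDH5, which overlaps it on the same strand. RDH13 rose by 0.49 ± 0.17 (adjusted p = 0.029) with shEZH2#3 and stood at -0.08 with the offset; its call was lost without shluc replicate 2 (0.37) or shEZH2#3 replicate 2 (0.45) or 3 (0.49).

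The 1 other receptor tested was RXRB, a second RXR. RXRB averaged 67.7 ± 9.74 CPM in shEZH2#1, 113 ± 12.1 in shEZH2#3 and 70.6 ± 3.23 in shluc. It rose by 0.68 ± 0.15 with shEZH2#3 (adjusted p = 0.00146), and was not called with the offset (0.19, adjusted p = 0.251).

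Of 12 tested coregulators of the receptors, 8 fell and 1 rose with shEZH2#3, where 19.8% of all tested genes were called lower and 24.4% higher. With shEZH2#1, 1 of the 12 passed the test, falling, where 7.89% of all tested genes were called lower. The median log2 fold change of the 12 was -0.30 with shEZH2#1 and -0.75 with shEZH2#3, beside -0.07 and -0.01 over all tested genes. CREBBP, a histone acetyltransferase and coactivator, averaged 36.0 ± 2.09 CPM in shEZH2#1, 31.8 ± 5.37 in shEZH2#3 and 53.5 ± 13.3 in shluc and fell by 0.57 with shEZH2#1 (log2, adjusted p = 0.0313) and by 0.75 with shEZH2#3 (adjusted p = 0.00274). The call of CREBBP with shEZH2#1 was lost, at log2 fold changes of -0.64 to -0.41, without any of shluc replicates 1 and 2 and shEZH2#1 replicates 1, 2 and 3. Its paralog EP300 fell by 0.74 (log2) with shEZH2#3 (adjusted p = 0.00398). The p160 coactivators NCOA1, NCOA2 and NCOA3 fell with shEZH2#3 by 0.77, 1.21 and 0.92 (log2, adjusted p = 0.03, 0.00347 and 0.00312), and NCOA1 lost its call without shluc replicate 2 (-0.52) or shEZH2#3 replicate 2 (-0.68) or 3 (-0.76). With shEZH2#1, EP300 was called lower without shluc replicate 3 (-0.64), and NCOA3 without shluc replicate 3 (-0.83) or shEZH2#3 replicate 1 (-0.61). The corepressor NCOR1 fell by 0.96 (adjusted p = 0.00105) with shEZH2#3. With the offset 3 of the 12 were called lower with shEZH2#3, where 11.5% of all tested genes were, namely CREBBP (-1.01), EP300 (-0.72) and NCOR1 (-0.48), and none of NCOA1, NCOA2 and NCOA3 was. Transcripts of the 3 NCOA genes and of NCOR1 are poor in GC (42.6% to 45.2%), and in the bins of that GC content the median fold change of all genes was negative with both hairpins.

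Of 8 tested genes known to be induced by retinoic acid, 1 rose with shEZH2#1 and 4 rose with shEZH2#3, and 0 fell with either. Of all tested genes 11.2% were called higher with shEZH2#1, so 1 of 8 is near the background, and 24.4% with shEZH2#3. The median log2 fold change of the 8 was -0.03 with shEZH2#1 and 0.76 with shEZH2#3, beside -0.07 and -0.01 over all tested genes. PLAAT4 (RARRES3), a phospholipase named as a retinoic acid responder, had 14.5, 13.1 and 11.0 CPM in shEZH2#1, 11.8, 10.5 and 9.45 CPM in shEZH2#3 and 5.48, 4.71 and 6.90 CPM in shluc. No knockdown library overlapped shluc, and PLAAT4 rose by 1.18 ± 0.19 (adjusted p = 0.000477) with shEZH2#1 and 0.90 ± 0.19 (adjusted p = 0.00121) with shEZH2#3. TGM2, a transglutaminase, had 246.2, 257.7 and 294.9 CPM in shEZH2#1, 560.3, 627.4 and 590.1 CPM in shEZH2#3 and 312.7, 245.4 and 238.2 CPM in shluc. It stood apart only in shEZH2#3, at 1.16 ± 0.16 against shluc (adjusted p = 2.59e-05), with 0.00 ± 0.15 (adjusted p = 0.989) in shEZH2#1. TNFAIP2 and the epithelial transcription factor ELF3 also rose with shEZH2#3 (1.29 ± 0.16, adjusted p = 1.12e-05, and 0.85 ± 0.16, adjusted p = 0.000384), with -0.23 and -0.16 in shEZH2#1. With the offset TNFAIP2 was called lower in shEZH2#1 (-0.54, adjusted p = 0.00121). All 4 were still called higher with shEZH2#3 with the offset, at 0.50 to 0.92.

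**Figure D4:**
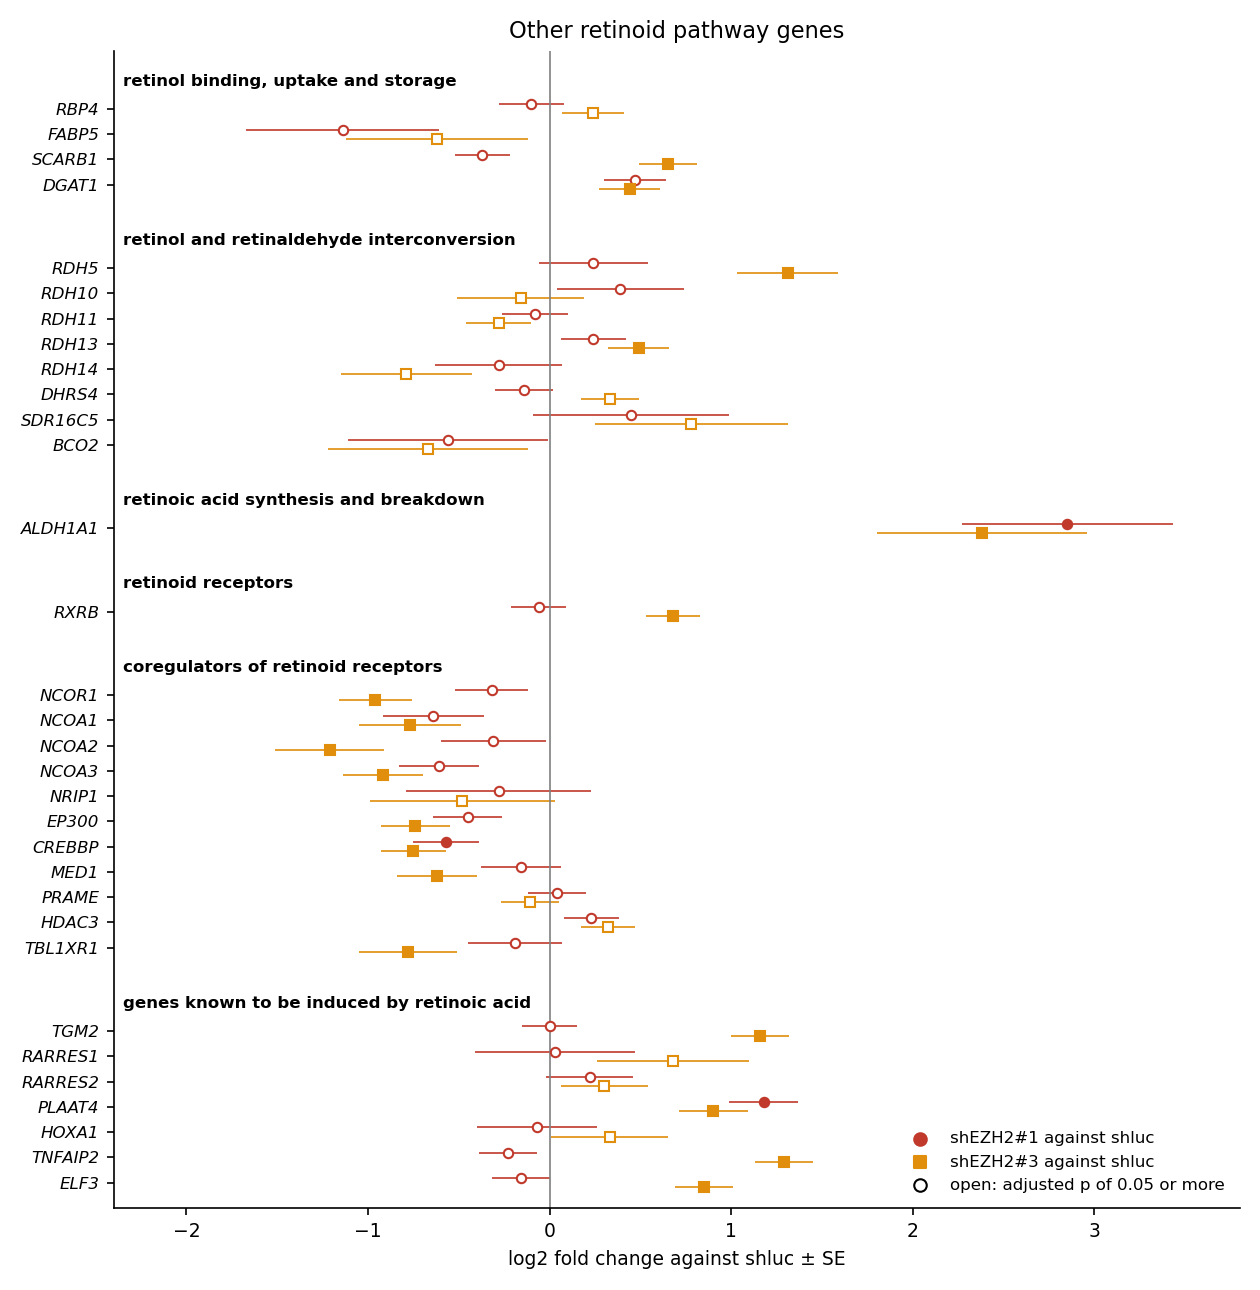
Log2 fold changes ± SE of 32 of the 33 tested retinoid pathway genes that are not members, against shluc, for shEZH2#1 (circles) and shEZH2#3 (squares), by list; filled marks have an adjusted p below 0.05, and a gene of 2 lists is drawn once. ALDH1A1 and PLAAT4 lie right of 0 with both hairpins, and 8 of the 11 coregulators drawn are filled left of 0 with shEZH2#3.

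Genes with the profile nearest to that of DHRS3 were sought among 8218 tested genes with a mean of at least 5 CPM, by the root mean square difference of log2 CPM over the 9 libraries, each gene centred on its own mean. The 6 nearest were CITED4 (0.47), CEBPA (0.50), TMEM52 (0.51), SPATA2L (0.51), FOXO6 (0.52) and SLC29A4 (0.53). CITED4 averaged 86.8 CPM in shEZH2#1, 240.1 in shEZH2#3 and 58.2 in shluc, and CEBPA, a CCAAT enhancer binding factor, averaged 122 CPM in shEZH2#1, 311 in shEZH2#3 and 79.7 in shluc. All 6 shared with DHRS3 the order shEZH2#3 above shEZH2#1 above shluc, with smaller fold changes. The shared order follows from choosing them by profile in these same libraries and is no separate result. Distances and levels were taken without the GC and length offset. Of the members STRA6 came closest (0.60, place 10), followed by RARA (0.75, place 79) and RARG (0.91, place 638), and ALDH1A3 was farthest (1.61, place 7677).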

How the data were processed

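KYSE180 RNA was sequenced from 9 irradiated libraries, 3 each of shEZH2#1, shEZH2#3 and shluc, grouped by their titles. Per the labels' protocols, poly(A) RNA was made into dUTP-stranded libraries. The submitters' processing notes list GRCh38 (hg38) as the build and, without versions, StringTie, HISAT2 and fastp as tools; how reads were counted, on which annotation and with which strand setting is not given in the sources used here, so antisense and overlapping genes are uncertain. Each deposited file holds estimated counts by Ensembl identifier, not normalized, as their differing totals and the decimals in 14.7 to 18.5% of nonzero values show. Identifiers were given symbols from a naming table (51996) or GENCODE 29 (342), and 5567 had none. Those without took 6.43 to 23.08% of counts, mostly 2 abundant genes that held 15.81 to 22.58% of counts in shEZH2#1, 5.97 to 11.59% in shEZH2#3 and 6.96 to 9.28% in shluc. Positions are those of GENCODE 29.

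After rounding, the estimated counts went into edgeR 4.0.16 (R 4.3.3): TMM scaling, filterByExpr over the 3 groups (13252 genes kept), a quasi-likelihood fit of all 9 libraries with 1 mean per group, and Benjamini-Hochberg adjustment over all kept genes, called below 0.05 without a minimum fold. The common dispersion was 0.0315. An SE is the fold change without shrinkage over the square root of F; errors of CPM are SD. The offset for GC content and length came from a smooth per library (span 0.3) on each gene's longest GENCODE 29 transcript, coding where it had one, which covered 97.7% of tested genes. The fit was first run on simulated counts without a trend with GC content, so that run does not cover the trends seen here.

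The members and gene lists were chosen with earlier results of these data known. Genes named are the members, up to 6 per list of the other retinoid genes called with at least 1 hairpin, the 6 profiles nearest to DHRS3, and EZH2. KRT8, KRT18, VIM and single marker genes were named after their values were seen. The values of 1 coregulator gene are not reported here. Alternatives were DESeq2 1.42.0, limma-voom (limma 3.58.1), scaling by RLE or by upper quartile, no filter, a mean of at least 1 CPM, only the groups compared, a replicate block, the offset alone and with the block, leaving out the 2 abundant genes, 2 libraries together, or each library.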

Additional observations from a re-analysis of the deposited data

Results flagged for a closer look

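These genes are listed because their level differed between the 2 hairpins, as tested by the contrast of shEZH2#1 with shEZH2#3 in edgeR's quasi-likelihood test; values are log2 fold changes of shEZH2#1 over shEZH2#3. Among the 9 retinoid genes, whose contrasts were known when they were chosen, these were DHRS3 (-1.66), RARA (-1.27), STRA6 (-1.02) and RARG (-0.84). The lists of other retinoid genes were also drawn up with earlier results known. Among the other retinoid genes the uptake receptor SCARB1 (-1.03, adjusted p = 8.7e-05), the dehydrogenase RDH5 (-1.07, adjusted p = 0.0102), the receptor RXRB (-0.74, adjusted p = 0.00128) and the retinoic acid responders TGM2 (-1.15, adjusted p = 2.97e-05), TNFAIP2 (-1.52, adjusted p = 2.17e-06) and ELF3 (-1.0, adjusted p = 0.000127) were lower in shEZH2#1 than in shEZH2#3. The coregulators NCOA2 (0.90, adjusted p = 0.0385) and NCOR1 (0.63, adjusted p = 0.0277) were higher in shEZH2#1 than in shEZH2#3. EZH2 itself differed between the hairpins by 0.02 ± 0.19 (adjusted p = 0.943). With the GC and length offset the call of NCOA2 was lost (0.68, adjusted p = 0.0608) and the other 11 kept theirs. The call of NCOA2 was also lost without shEZH2#1 replicate 1 (0.80) or 3 (0.89) or shEZH2#3 replicate 1 (0.89) or 2 (0.74), that of NCOR1 without shEZH2#1 replicate 1 (0.51) or shEZH2#3 replicate 2 (0.52), and that of RDH5 without shEZH2#1 replicate 1 (-0.92).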

How the results depend on the processing

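Over 21 settings, DHRS3 and STRA6 were called with each hairpin against shluc in every one, and RARA, RARG and ALDH1A3 with shEZH2#3. Single fold changes of the members were within the spread of their main value in 601 cases and moved in 63; of the other named genes 1186 kept call and direction, 36 gained a call, 73 lost it and 33 changed sign. Upper quartile scaling moved the median of all genes to -0.18 for shEZH2#3 against shluc and to 0.18 between the hairpins, beside -0.01 and 0.01.

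Counts of called other retinoid genes for shEZH2#1 (3) became 5 with upper quartile scaling and with only the groups compared, 6 without a filter and 8 with the GC and length offset, with or without the block; leaving out 1 library gave 2 to 6. For shEZH2#3 (19) the offset gave 11, and 10 with the block; over all genes (5861) it gave 3215 and 3029. For the mean of both hairpins the offset gave 7 with or without the block (13), and 2476 and 2231 over all genes (4804); leaving out shluc replicate 2 and shEZH2#3 replicate 1 together gave 8, and leaving out 1 library gave 5 to 15 other retinoid genes, 2649 to 4905 of all genes and 3 to 6 members (6), the lowest in each case without shluc replicate 2. Leaving out 1 library gave 1159 to 3063 genes called in all for shEZH2#1 (2523; 1159 without its replicate 3, 1344 without its replicate 2, 1550 without shluc replicate 2) and, between the hairpins, 6 to 10 other retinoid genes (10) and 1956 to 3941 of all genes (3311; 4191 without shluc replicate 2 and shEZH2#3 replicate 1), both lowest without shEZH2#1 replicate 1. The cause of these shifts was not tested.

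Sign changes of the other named genes included some results that were called before the offset. With shEZH2#1 the offset gave RDH5 -0.09 (-0.06 with the block), RDH13 -0.10 (-0.11), NCOA2 0.03 (0.03) and NCOR1 0.01 (0.01). RDH5 was -0.10 without shluc replicate 2 and shEZH2#3 replicate 1 and -0.11 to 0.52 leaving out 1 library, RXRB -0.19 to 0.00, and TGM2 -0.03 without a filter, -0.05 without those 2 libraries and -0.08 to 0.14 leaving out 1. With shEZH2#3 the offset gave DGAT1 -0.19 (-0.19) and RDH13 -0.08 (-0.08), where both were called higher before it (0.44 and 0.49). For the mean of both hairpins the offset gave DGAT1 -0.05 (-0.05), which was called higher before it (0.46). In that contrast SCARB1 was -0.11 (-0.11), RDH13 -0.09 (-0.10) and RXRB -0.05 (-0.05) with the offset. Between the hairpins NCOA1 was -0.07 (-0.06), and DGAT1 was -0.07 without those 2 libraries and -0.11 to 0.14 leaving out 1.

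With the replicate number as a block, 2208 genes were called for shEZH2#1, 5482 for shEZH2#3, 4453 for the mean and 2938 between the hairpins, and the members called stayed at 2, 6, 6 and 4. Deviations of libraries with the same number correlated at -0.12 to 0.08 and those with different numbers at -0.16 to 0.16, so the numbers were not taken to pair libraries. RARB (4 counts in all) is limited by depth, and CYP26B1 had 34 to 75 counts per library.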
